A study of Mus musculus with 2 samples.

Results

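The miR-30 family of the mouse comprised 6 of the 1973 genes counted in small RNA libraries of the embryonic forebrain. The members were chosen by name and not by a cut on any measured value, though earlier results of these data were known. They are the hairpins Mir30a, Mir30b, Mir30c-1, Mir30c-2, Mir30d and Mir30e, which lie in pairs at 3 places in the genome. The study sequenced small RNA of forebrain tissue from embryos aged 10.5 days of the strain B6NCrl, of both sexes pooled. Its only group has 2 libraries. Replicate 1 pooled the forebrains of 69 embryos and replicate 2 those of 51, so differences between single embryos cannot be seen. The design holds no treatment and no other tissue or age, and the comparisons are therefore among the members, between the libraries and with other miRNA families.

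A miRNA gene gives a hairpin transcript that is cut into short mature strands from its 5′ arm (5p) and its 3′ arm (3p), and an Argonaute protein loaded with such a strand represses messenger RNAs that pair with the seed, bases 2 to 8. The miR-30 hairpins carry the same seed in their 5p arms and can therefore pair with the same target sites. The family is known from heart and kidney, where it is abundant, is found widely in other tissues including brain, and includes the autophagy gene Becn1 among its described targets.

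The mature sequences decide which reads can be told apart, so those with an entry in RefSeq (build GRCm38.p6, which is mm10) are shown, 5′ to 3′ with the seed in capitals. Entries were matched for 4 of the 6 members, all but Mir30b and Mir30d.
miR-30a-5p: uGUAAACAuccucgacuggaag
miR-30e-5p: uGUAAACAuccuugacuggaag
miR-30c-5p: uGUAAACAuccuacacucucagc
miR-30a-3p: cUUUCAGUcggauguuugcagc
miR-30e-3p: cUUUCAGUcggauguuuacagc
miR-30c-1-3p: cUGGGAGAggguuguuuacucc
miR-30c-2-3p: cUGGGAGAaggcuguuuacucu

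The 5p arms of Mir30a and Mir30e differed at 1 of 22 bases, C13U, counted from 1 at the 5′ end with the base of miR-30a first. Their 3p arms also differed at 1 of 22 bases, G18A. The 5p arm of Mir30c-1 and Mir30c-2 is 1 and the same sequence, and the hairpins stay identical for 5 bases beyond it. Their shared stretch of 28 bases is shown with the mature strand in capitals.
shared by Mir30c-1 and Mir30c-2: UGUAAACAUCCUACACUCUCAGCuguga

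The libraries held fragments under 30 nt, and a read with more than 1 place in the genome entered no gene count. A read that lies within the stretch of 28 bases therefore counts for neither miR-30c gene, and both levels are lower limits. The 3p arms of the 2 loci differ at 3 of 22 bases (G9A, U12C and C22U, with the base of Mir30c-1 first) and can be assigned. The deposited counts do not separate the 2 arms of a hairpin.

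Sense-strand gene counts summed to 3256070 in replicate 1 and 3574530 in replicate 2. Reads with several places in the genome came to 79.2% and 77.8% of these counts. A level is given in CPM, the count scaled to the total of the gene counts of its library. The 95% intervals are exact (Clopper-Pearson) and do not include any error besides counting. A list of 8 miRNAs fixed for neural progenitors and neurons, 7 of them counted, held 2.00% and 1.75% of the counts in replicates 1 and 2, of which the progenitor miRNA Mir92b made up 97.4%. Of these 7 genes 6 have several loci, so reads shared between loci are missing. The share of the list and the part of Mir92b hold for assignable reads only. The heart and muscle list held 0.00461% and 0.00411%, with Mir1a-1, Mir133a-1 and Mir133a-2 of its 6 counted genes at 0, and the kidney and gut list 0.0144% and 0.0147%. Those 3 genes have several loci, so shared reads were not counted and a count of 0 does not show absence. In the kidney and gut list 2 of 4 genes have several loci. The epithelium list held 0.904% and 0.788%, the endothelial marker Mir126a 2.90% and 3.19%, the erythroid list 0.0661% and 0.076%, the liver list 0.00802% and 0.0082%, and the list of Hox-cluster miRNAs of hindbrain and trunk 0.0237% and 0.0297%. Mir192 is in both the liver list, of which it made up 87.3%, and the kidney and gut list, so these 2 lists are not separate. Of the 5 Hox-cluster genes 2 have several loci. The part of these cells in the miR-30 levels was not tested, and in bulk tissue fewer cells of a type cannot be told apart from less RNA per cell.

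The miR-30 family was an abundant family of the forebrain at this age, and nearly all of its counts came from Mir30e, Mir30a and Mir30d. Together the 6 genes held 4.38% of the counts in replicate 1 (142510 counts, interval 4.35% to 4.40%) and 4.21% in replicate 2 (150526 counts, 4.19% to 4.23%), a mean of 4.29% ± 0.117 (SD, n = 2). With the reads mapped to several places added to the denominator alone the mean was 2.41%. That value is a lower limit, because the family's own reads of this kind were not added to its counts. The 3 high members made up 99.3% ± 0.0584 of the family's counts. Mir30b, Mir30c-1 and Mir30c-2 shared the remainder, and 2 of these 3 are the genes with hidden reads.

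Mir30e was the highest member, with 23972 CPM in replicate 1 and 23901 CPM in replicate 2. It ranked 7 among all counted genes in each library and held 55.8% ± 1.41 (SD, n = 2) of the family's assignable counts. Mir30a followed with 13034 CPM in replicate 1 and 12094 CPM in replicate 2, or 29.3% ± 0.751 of the family. Mir30d had 6468 CPM in replicate 1 and 5799 CPM in replicate 2, or 14.3% ± 0.713 of the family. These 3 genes lay among the 41 highest genes in both libraries.

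The other 3 members had few assignable counts. Mir30b had 168 CPM in replicate 1 (547 counts, interval 154 to 183 CPM) and 168 CPM in replicate 2 (602 counts, 155 to 182 CPM). Mir30c-1 reached at least 94.6 CPM in replicate 1 (308 counts, 84.3 to 106 CPM) and 111 CPM in replicate 2 (397 counts, 100.4 to 123 CPM). Mir30c-2 reached at least 30.7 CPM (100 counts, 24.99 to 37.4 CPM) in replicate 1 and 37.5 CPM (134 counts, 31.4 to 44.4 CPM) in replicate 2. No read was counted on the opposite strand at any of the 6 hairpins in either library.

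The order Mir30e, Mir30a, Mir30d, Mir30b, Mir30c-1, Mir30c-2 was the same in both libraries. In all 15 pairs of members both libraries of the higher gene lay above both libraries of the lower gene, so the libraries of neighbours in the order did not overlap. The share of such pairs among all counted genes was not computed. Over all tested genes the median coefficient of variation of the CPM between the libraries was 8.09%. Mir30e stood 1.91 ± 0.097-fold above Mir30a, Mir30a 2.05 ± 0.0498-fold above Mir30d, and Mir30d 36.5 ± 2.88-fold above Mir30b in CPM (SD, n = 2). Divided by hairpin length, the same steps were 1.47, 2.37 and 42.7-fold, and the order held. These steps were not tested, and the places of the miR-30c genes hold for assignable reads only.

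**Figure D1:**
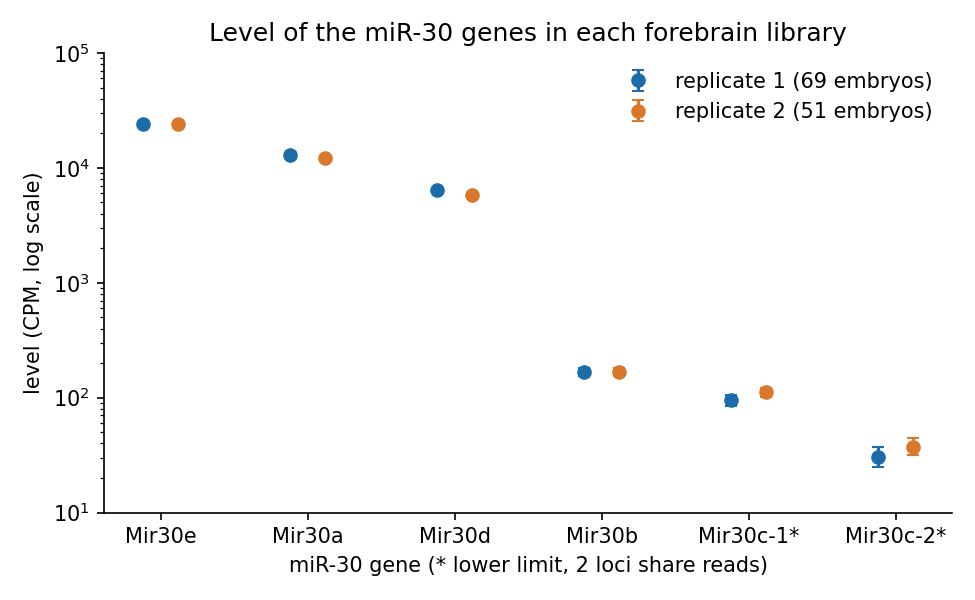
Level of each miR-30 gene in CPM on a log axis, with 1 point per library and bars for the exact 95% counting interval. Mir30e, Mir30a and Mir30d lie between 5799 and 23972 CPM and the other 3 genes between 30.7 and 168 CPM, and asterisks mark the lower limits.

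In each of the 3 genomic pairs the upstream hairpin had many assignable counts and the one downstream on the same strand had few. Coordinates are positions in mm10 from GENCODE release M21. Mir30e (ENSMUSG00000065409.1, chromosome 4, 120772606 to 120772697, minus strand) and Mir30c-1 (ENSMUSG00000065490.1, 120769534 to 120769622) lie 2983 bases apart in introns of Nfyc, which encodes a subunit of the transcription factor NF-Y. Mir30a (ENSMUSG00000065405.2, version 3 in release M21, chromosome 1, 23272269 to 23272339, plus strand) overlaps no other annotated gene. Mir30c-2 (ENSMUSG00000065567.1, 23291701 to 23291784) lies 19361 bases downstream of it within exon sequence of Gm27028, a long non-coding RNA. Mir30d (ENSMUSG00000065437.1, chromosome 15, 68341208 to 68341289, minus strand) lies within exon sequence of Gm20732, also a long non-coding RNA, and 9 of its 82 bases overlap Gm37296. Mir30b (ENSMUSG00000065476.2, 68337415 to 68337510) is 3697 bases downstream of it, and 16 of its 96 bases overlap an exon of Gm26621. No further counted gene lay within 10 kb of any member. Release M21 also annotates a hairpin Mir30f on the strand opposite to Mir30e, which was not analysed here.

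The Nfyc pair held 56.0% ± 1.44 of the family's assignable counts, the chromosome 1 pair 29.3% ± 0.737 and the chromosome 15 pair 14.7% ± 0.702 (SD, n = 2). Reads of miR-30c-5p are missing from the Nfyc and chromosome 1 pairs, and their number is unknown. Mir30d exceeded Mir30b 38.5-fold in replicate 1 and 34.4-fold in replicate 2 in counts. That is a log2 ratio of 5.19 ± 0.114 in counts, or 5.41 per length. Mir30e exceeded the assignable counts of Mir30c-1 by 7.99 in replicate 1 and 7.75 in replicate 2 on the log2 scale. Mir30a exceeded those of Mir30c-2 by 8.73 and 8.33. The last 2 ratios are upper limits, because reads of miR-30c-5p are missing from the lower gene, so the pairs cannot be ranked by their ratio. Whether Mir30b loses reads in the same way was not tested.

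**Figure D2:**
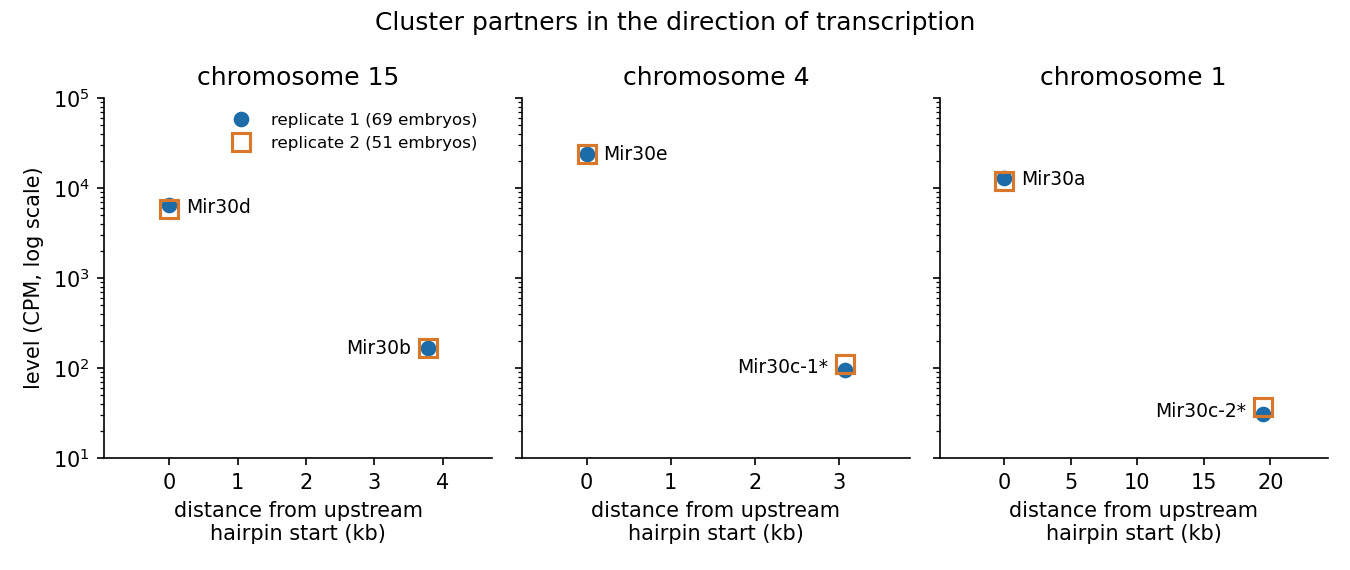
Level in CPM (log axis) of the 2 hairpins of each pair against the distance in kb from the start of the upstream hairpin, with filled circles for replicate 1 and open squares for replicate 2. Mir30d stands 38.5-fold and 34.4-fold above Mir30b in replicates 1 and 2. Mir30c-1 and Mir30c-2 carry asterisks as lower limits, so their gaps to Mir30e and Mir30a hold for assignable reads only.

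The 2 pools gave nearly the same levels of Mir30e, Mir30a and Mir30d. The largest miR-30 difference that passed a test was 1.2-fold, for Mir30c-1. An exact binomial test, two-sided, set each gene's pair of counts against the TMM-scaled library sizes, with Benjamini-Hochberg adjustment over the 401 genes whose counts averaged at least 10. It says something of these 2 libraries, not of a condition, and knows no error besides counting. All 6 members reached that mean count, and 4 of the 6 were called at 0.05, 2 higher and 2 lower in replicate 1. Under scaling to total counts, and under DESeq2 size factors, the number called was 2, both higher, beside 44.1% of all tested genes under either. With TMM scaling 43.4% of all tested genes were called, 19.7% as higher and 23.7% as lower in replicate 1. Of the 62 genes whose counts averaged 10000 or above, 87.1% were called, and the 3 members at that depth, Mir30e, Mir30a and Mir30d, were called too. Most genes of this depth thus passed, members or not.

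Mir30d was higher in replicate 1 by 0.13 on the log2 scale (adjusted p = 1.9e-18, exact binomial test) and Mir30a by 0.077 (adjusted p = 2.8e-14, exact binomial test). Mir30c-1 was lower in replicate 1 by a log2 ratio of −0.26 (adjusted p = 0.041, exact binomial test). Mir30e had a log2 ratio of −0.027 (adjusted p = 0.00066, exact binomial test). With scaling to total counts or by DESeq2 size factors, which moved the median log2 ratio of all tested genes from −0.027 to 0.0034 and 0.0031, the calls of Mir30d and Mir30a were kept and the other 2 were lost. Mir30c-1 then had adjusted p = 0.075 under either scaling (exact binomial test), and Mir30e turned to 0.0042 and 0.0039.

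Mir30b, at −0.034 (adjusted p = 0.86, exact binomial test), and Mir30c-2, at −0.32 (adjusted p = 0.19, exact binomial test), did not pass. The median log2 ratio of the 6 members was −0.03, beside −0.027 for all 401 tested genes. The median size of the ratio, regardless of sign, was 0.102 for the members and 0.168 for all tested genes. A log2 ratio smaller in size than that of Mir30e was found for 31 of the 401 genes, smaller than that of Mir30c-1 for 265 and smaller than that of Mir30c-2 for 300. The coefficient of variation of the CPM between the libraries was 0.208% for Mir30e, 5.29% for Mir30a and 7.72% for Mir30d, where counting alone gives 0.35%, 0.483% and 0.692%. It was 0.176% for Mir30b, 11.3% for Mir30c-1 and 14.1% for Mir30c-2, where counting alone gives 4.17%, 5.33% and 9.24%. The CPM is scaled to total counts, whereas the ratios and their tests use TMM scaling. The biological coefficient of variation of all tested genes, from the common dispersion of edgeR, was 14.0%.

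**Figure D3:**
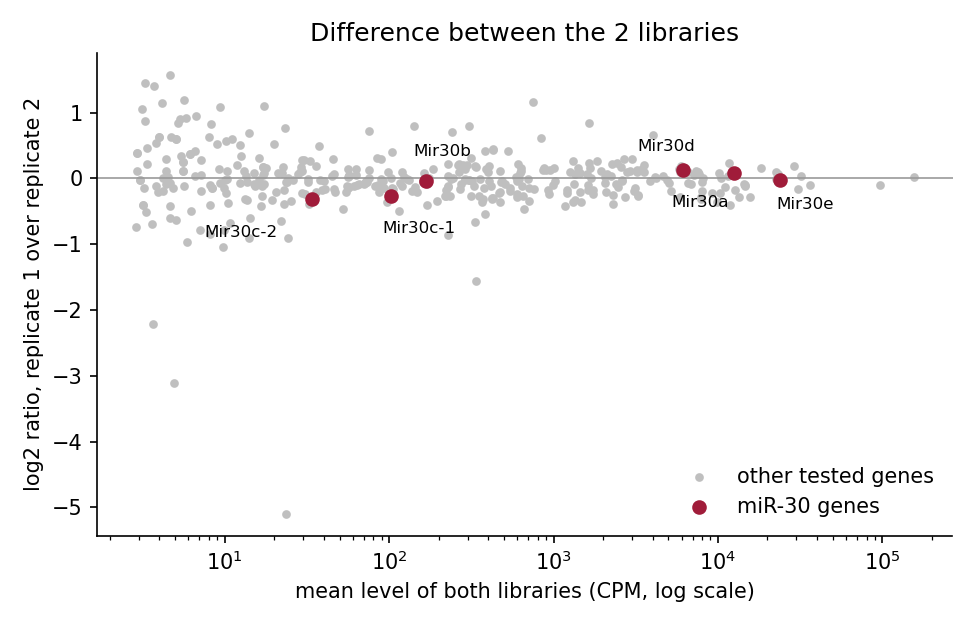
Log2 ratio of replicate 1 over replicate 2 (TMM scaling) against the mean level in CPM (log axis) for the 401 tested genes, with the 6 miR-30 genes in red. The members lie between −0.32 and 0.13, inside the cloud of the other genes.

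1 further counted gene, Mir384, carries the miR-30 seed in its RefSeq 5p arm, which otherwise differs from the miR-30 arms and is shown for that comparison.
miR-384-5p: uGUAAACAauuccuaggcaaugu

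Mir384 (ENSMUSG00000065499.1) lies on chromosome X at 105344282 to 105344369, minus strand, and overlaps no other annotated gene. It had 235 CPM in replicate 1 (765 counts) and 224 CPM in replicate 2 (802 counts), with a log2 ratio of 0.036 (adjusted p = 0.80, exact binomial test). In CPM it stood above Mir30b and below Mir30d in both libraries. Its counts equalled 0.537% and 0.533% of those of the 6 miR-30 genes.

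The genes nearest to the members in level were sought by the Euclidean distance of log2(CPM + 1) over the 2 libraries, among 384 other tested miRNA genes. With 2 libraries this likeness is mostly one of level. Mir26b, an intronic miRNA of a conserved family, was nearest to Mir30e, with 23771 CPM in replicate 1 and 22317 CPM in replicate 2. Mir130b was nearest to Mir30a with 11567 ± 347 CPM and Mir23b to Mir30d with 5971 ± 619 CPM (SD, n = 2). The genes nearest to the low members were Mir3102 for Mir30b at 169.7 ± 4.55 CPM, Mir33 for Mir30c-1 at 103 ± 13.5 CPM and Mir218-2 for Mir30c-2 at 32.6 ± 5.72 CPM. Mir218-2 is itself a gene of several loci.

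Beside 3 other conserved families, chosen with earlier results known, miR-30 held the largest share of the assigned counts in both libraries. Families outside this choice were not summed, so the place of miR-30 among all families was not determined. Mir17, which belongs to none of these families, alone had 305770 and 352618 counts in replicates 1 and 2. The whole miR-30 family had 142510 and 150526. The miR-26 family held 2.38% and 2.24% in replicates 1 and 2, the miR-181 family 1.79% and 1.60%, and the let-7 family, known to accumulate as cells differentiate, 0.795% and 0.477%. On the log2 scale the summed miR-30 counts exceeded those of miR-26 by 0.90 ± 0.0252, those of miR-181 by 1.35 ± 0.0731 and those of let-7 by 2.80 ± 0.48 (SD, n = 2). The libraries of miR-30 overlapped with those of none of these 3 families. These gaps hold for assigned reads, since 2 of 3 counted miR-26 genes, 4 of 6 miR-181 genes and 5 of 10 let-7 genes have several loci, against 2 of 6 miR-30 genes. Mirlet7e and Mirlet7f-1 were not analysed here.

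Families differed in how their assigned counts were spread over members. Each family has genes of several loci, whose shared reads are missing, so the shares of members hold for assigned reads only. Mir26b alone held 99.8% of the miR-26 counts, and Mirlet7g, with 4979 CPM in replicate 1 and 3097 CPM in replicate 2, held 63.5% of the let-7 counts. Mir181c, with 6140 CPM in replicate 1 and 5637 CPM in replicate 2, held 34.8% of the miR-181 counts. Mir30e, at 55.7% of the family's mean CPM, lay between Mir181c and Mirlet7g. Between the libraries, 1 of 3 miR-26 genes was called higher in replicate 1 with none lower. For miR-181, 4 of 6 genes were called higher and 1 lower, and 6 of 9 tested let-7 genes were called higher with none lower. Of all 401 tested genes 19.7% were called higher and 23.7% lower. Of the genes whose counts averaged 10000 or above, 87.1% were called in either direction. No family was tested against these shares. The median log2 ratios were 0.06 for miR-26, 0.11 for miR-181 and 0.68 for let-7. For miR-30 the median was −0.03, with ratios from −0.32 to 0.13, and for all 401 tested genes it was −0.027.

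**Figure D4:**
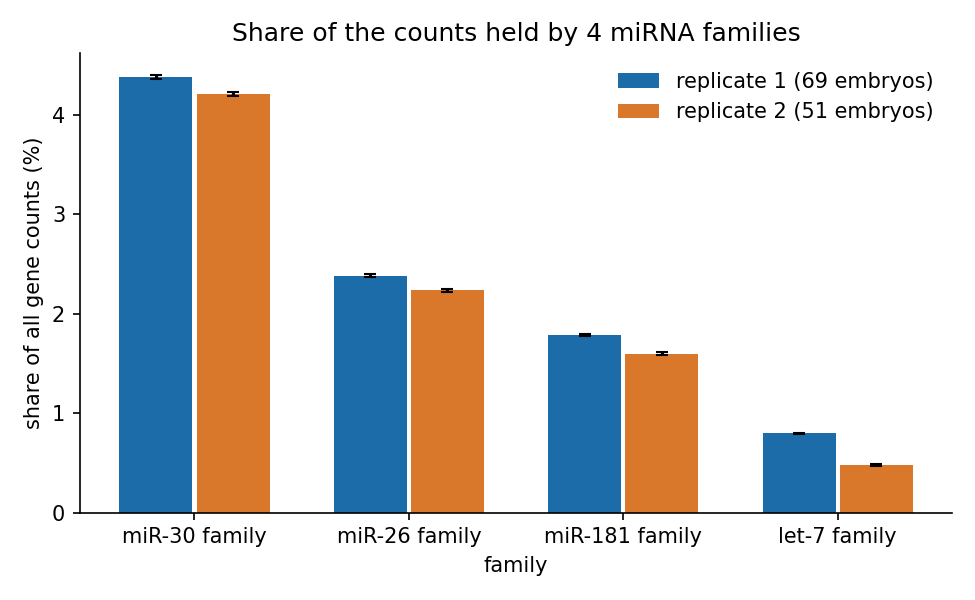
Share of all gene counts in percent held by the miR-30, miR-26, miR-181 and let-7 families, with 1 bar per library and the exact 95% counting interval. The miR-30 bars stand at 4.38% and 4.21%, above those of the other 3 families in both libraries.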

How the data were processed

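Small RNA was measured in 2 libraries of 1 group. The deposited files hold raw read counts per gene that the authors made, with no normalization. Per the labels the assembly was mm10, and per the authors' file notes the annotation was M4. The name of the aligner, trimmer or counting program was not given in the sources used here. Counts on the strand of the gene were used, which made up 96.7% and 96.4% of the counts on either strand. The 4 tallies of reads in no gene (24.6% and 25.4% of reads unmapped, 30.1% and 28.8% at several places, 7.28% and 8.82% in no listed gene, none ambiguous) stayed out of library sizes and tests. Symbols and coordinates came from GENCODE M21, which held 1894 of the 1973 identifiers.

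CPM used the total of the gene counts. Ratios used a pseudocount of 0.5 counts and TMM factors of edgeR 4.0.16 (R 4.3.3), computed on the 401 genes whose counts averaged at least 10. Alternatives used total counts and DESeq2 1.42.0 size factors on the same genes. scipy 1.17.1, numpy 2.4.6, pandas 2.3.3 and matplotlib 3.10.9 on Python 3.11.15 did the rest. Tested on simulated data for replicate 1 against replicate 2 over 401 genes, the exact binomial test found 90% of 2-fold changes and 61% of 1.25-fold changes, and wrongly called 1.49% of the genes left as they were. The simulated counts held counting error only and no other variation between libraries. These rates therefore do not carry over to the deposited counts, where the test called 43.4% of the 401 genes.

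The members, lists and alternatives were chosen with earlier results of these data known. The named genes are the members, counted genes with the miR-30 5p seed, the nearest miRNA gene to each member, the highest member of each comparison family, and counted genes within 10 kb of a member. A count of 0 allows up to 3 counts of assignable reads, or 0.921 CPM in replicate 1 and 0.839 CPM in replicate 2.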

Additional observations from a re-analysis of the deposited data

How the results depend on the processing

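Counting reads on either strand put the family's share at 4.15%. Adding the reads mapped to several places to the denominator alone put it at 2.41%, a lower limit. Under total-count scaling 2 of 6 members were called different between the libraries, and 2 under DESeq2 size factors, while without the filter on mean count 3 were called. Of all genes tested, 44.1%, 44.1% and 22.5% were called under these settings in turn. Under the first 2 scalings the log2 ratio of Mir30e turned to 0.0042 and 0.0039. Per hairpin length the log2 ratio of Mir30d over Mir30b was 5.41. Without genes of several loci the log2 ratio of miR-30 to miR-181 was 1.87. Leaving out each replicate gave 4.21% to 4.38% for the share, 5.11 to 5.27 for Mir30d over Mir30b, 7.75 to 7.99 for Mir30e over Mir30c-1, 8.33 to 8.73 for Mir30a over Mir30c-2, and 0.88 to 0.91, 1.29 to 1.40 and 2.46 to 3.14 for miR-30 over miR-26, miR-181 and let-7. The cause of these shifts was not tested. No paired analysis was possible because the study has 1 group. The miR-30c levels are limited both by depth, with 100 to 397 counts a library, and by reads assigned to no gene, whose number is unknown.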
